A study of Homo sapiens with 6 samples.

Results

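The replication-dependent histone genes of the array were described by 69 rows of the expression table, out of 67528 transcript clusters, the array's unit for a transcribed locus. A row was a member where its symbol field held a symbol beginning with H2AC, H2BC, H3C or H4C and a digit, or a linker histone symbol from H1-1 to H1-5. Of these rows, 32 carried a single histone symbol and 37 listed several symbols. The rows with several symbols are given apart, because their signal cannot be assigned to a single gene. The table came from 6 Affymetrix arrays of cells labelled HepG2, an established hepatoblastoma-derived line. Of these, 3 arrays were of cells stably carrying pLKO-shSND1-#1, a hairpin against the RNA-binding nuclease SND1, and 3 of cells carrying the empty pLKO vector. Both groups had received fluorouracil, a pyrimidine analogue that blocks thymidylate synthesis, at 6 µg/mL for 48 h, so every value is a value under the drug. A single hairpin was used against an empty vector, and loss of SND1 and other effects of a hairpin cannot be told apart. The labels do not say whether the lines were clones or pools, or whether replicates were separate cultures, so the p-values cover only array-to-array spread, and part of that may be technical.

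The core histones H2A, H2B, H3 and H4 form the protein spool of the nucleosome, and the linker histone H1 binds the DNA where it enters and leaves. Replication-dependent histone genes lie in clusters of many near-identical copies and are transcribed mainly in S phase, when new DNA has to be packaged. Their mRNAs characteristically end in a stem-loop bound by the protein SLBP in place of a poly(A) tail, and they are degraded quickly when DNA synthesis stops. Polyadenylated transcripts have also been reported for some of these genes, among them H1-2, H2AC6, H2BC5, H2BC12 and H2BC21. The labels name a biotinylated cRNA protocol, and how the RNA was primed, which bears on transcripts without a poly(A) tail, is not given in the sources used here.

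No histone row passed the test for a difference between knockdown and vector cells. At a limma adjusted p under 0.05 over all transcript clusters, 0 of 32 single-symbol rows and 0 of 37 rows with several symbols were called, beside 0.0118% of all clusters. At an unadjusted limma p under 0.05, 1 single-symbol row was higher (H2BC9) and 1 was lower (H2BC3), beside 5.13% of all clusters higher and 4.02% lower, so the histone rows lay near the background. The single-symbol rows had a median log2 change of 0.03, beside 0.02 for all clusters (-0.02 and -0.039 with arrays centred on their medians), and ranged from -0.24 to 0.25. The 95% confidence interval of each of the 69 rows lay within a 1.5-fold change either way, which held for 93.1% of all clusters. The targeted SND1 cluster, which also lists the intronic transcript SND1-IT1, had log2 signals of 5.82, 5.69 and 5.88 in shSND1 cells and 7.44, 7.25 and 7.16 in vector cells, a change of -1.49 (limma adjusted p = 0.0166). That call was lost with a floor, with a replicate block and on leaving out any 1 array but vector replicate 3 (adjusted p 0.0773 to 0.249), while the groups did not overlap and the change stayed between -1.55 and -1.41.

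The members held 69 distinct histone symbols, of which 31 had a row of their own and 38 lay only on shared rows. Single-symbol rows comprised 5 of H1, 9 of H2A, 16 of H2B and 2 of H4, and there was 0 of H3. The H2A and H2B counts include the pseudogenes H2AC2P and H2BC20P, and H2BC11 had 2 rows. Most rows (54) lay on chromosome 6, the site of the major histone cluster, with 13 on chromosome 1 and 2 on chromosome 12, going by their identifiers. The chromosome in the identifier matched that of the first-listed symbol in RefSeq for 68 of 69 rows. The exception was the chromosome 6 row TC06001424.hg.1, whose field opens with the chromosome 1 gene H4C15. Near-identical copies can share probes, so the split of signal among copies of a type is uncertain, in single-symbol rows too.

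The histone types differed in the sequence elements before their starts. RefSeq promoter windows on GRCh38.p14 were at hand for 62 of 67 member genes that are not pseudogenes, and the 250 bases before the start were searched on both strands for 3 motifs that do not contain each other. The motif TATAAA, searched also as its reverse complement and called TATA here, lay in 69.4% of histone windows, against 13.0% of 27305 genes with a window. The CCAAT motif, read on either strand, the element bound by the factor NF-Y, lay in all 33 H2A and H2B windows, in 5 of 5 H1 windows, in 11 of 11 H3 windows and in 3 of 13 H4 windows, against 37.0% of all genes. The octamer ATTTGCAT, likewise read on both strands, known from H2B promoters as the site of the POU factor OCT1, lay in 13 of 17 H2B windows and 11 of 16 H2A windows. It lay in 1 of 11 H3 windows, 0 of 5 H1 windows and 0 of 13 H4 windows, and in 2.03% of all genes. Windows of histone genes on opposite strands overlapped in 11 pairs, so the same copy of a motif can be counted for both partners. A match is a description of letters and not a bound site, and its absence says only that these letters are not in the window.

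The 150 bases before the start are shown for 6 genes: the brightest single-symbol row of H1, H2A and H2B, the H2B genes with an unadjusted p under 0.05, and an H4 gene for contrast. They are RefSeq sequences on GRCh38.p14, for H2BC12 from the first of its 2 entries. Each runs from 5′ to 3′ on the gene's strand, and capitals mark the TATA, CCAAT and octamer motifs on either strand.
H1-4 (chr6:26156179-26156328, + strand): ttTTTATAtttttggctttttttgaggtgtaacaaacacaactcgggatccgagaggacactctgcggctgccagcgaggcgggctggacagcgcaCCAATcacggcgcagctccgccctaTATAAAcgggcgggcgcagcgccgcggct
H2AC20 (chr1:149886768-149886917, + strand): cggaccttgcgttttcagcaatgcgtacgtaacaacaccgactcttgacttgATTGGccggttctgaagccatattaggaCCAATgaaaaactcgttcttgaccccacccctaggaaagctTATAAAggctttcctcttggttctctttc
H2BC12 (chr6:27146859-27147008, - strand): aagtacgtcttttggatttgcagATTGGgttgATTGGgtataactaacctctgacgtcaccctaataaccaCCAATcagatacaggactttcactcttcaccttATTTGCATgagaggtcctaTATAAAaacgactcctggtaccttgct
H2BC3 (chr6:26043714-26043863, - strand): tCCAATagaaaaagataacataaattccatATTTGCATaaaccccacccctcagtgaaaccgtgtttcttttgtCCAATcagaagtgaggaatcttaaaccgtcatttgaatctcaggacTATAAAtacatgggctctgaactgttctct
H2BC9 (chr6:26251464-26251613, + strand): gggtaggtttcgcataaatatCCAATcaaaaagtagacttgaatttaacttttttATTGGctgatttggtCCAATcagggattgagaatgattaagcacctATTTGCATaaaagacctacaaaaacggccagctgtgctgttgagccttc
H4C7 (chr6:26246997-26247146, - strand): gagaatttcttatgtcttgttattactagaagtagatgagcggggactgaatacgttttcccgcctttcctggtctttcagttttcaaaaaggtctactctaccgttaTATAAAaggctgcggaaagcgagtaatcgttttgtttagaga
The H2B windows of H2BC12 and H2BC9 place the octamer close to the start, its first base at -46 and -49 from the start, whereas that of H2BC3 lies at -120. H4C7 holds neither a CCAAT nor an octamer in these bases.

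Signals of the single-symbol rows ran from near the floor of the array to its brighter clusters. Their means over all arrays ran from 1.30 to 10.3 on the log2 scale, beside 0.779 to 13.5 for all clusters, and 19 of 32 lay above 3.66, the median of all clusters, while 9 lay among the brightest 10% of clusters and 5 among the dimmest 25%. Probe sets have different response strengths, so these levels describe rows and give no ranking of genes by abundance. Low signals are also compressed towards the floor of the array, so changes of dim rows can be understated.

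**Figure D1:**
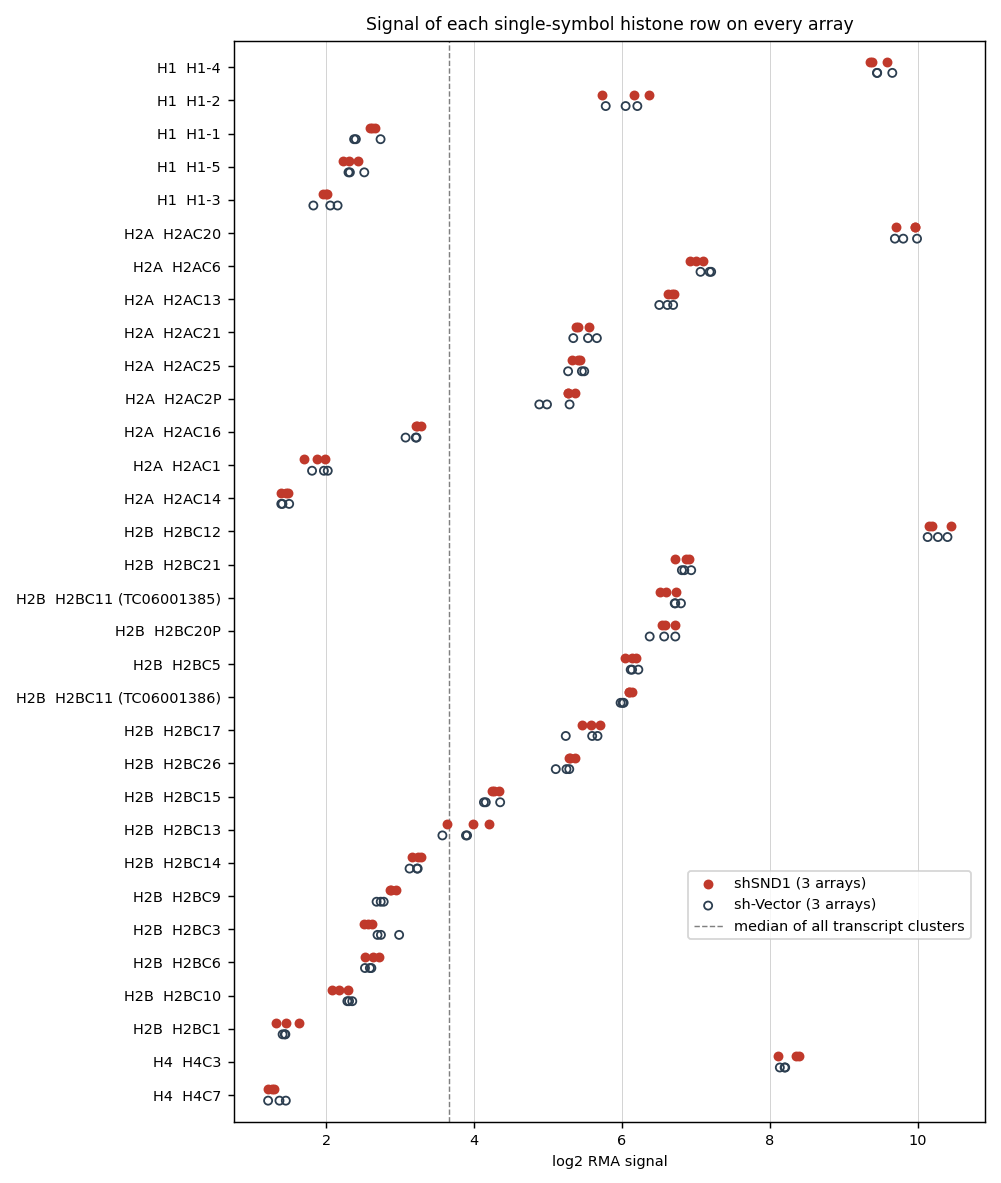
Log2 RMA signal (x axis) of each of the 32 single-symbol histone rows (y axis, grouped by type) on every array, with shSND1 arrays filled above and sh-Vector arrays open below. Rows run from 1.30 (H4C7) to 10.3 (H2BC12), and within nearly every row the groups overlap.

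Among linker histones, H1-4 and H1-2 gave the brightest rows, and the other 3 lay below the median of all clusters. H1-4 had log2 signals of 9.38, 9.36 and 9.58 in shSND1 cells and 9.66, 9.45 and 9.45 in vector cells, a log2 difference of -0.08 (SE 0.09, limma adjusted p = 0.818). These arrays overlapped and differed by less than the spread within either. H1-2, for which polyadenylated transcripts are also known, had 5.73, 6.36 and 6.17 in shSND1 cells and 6.21, 6.05 and 5.78 in vector cells. Its change of 0.07 (SE 0.17) had an interval from -0.33 to 0.48, and its knockdown arrays spanned the whole range of its vector arrays. H1-1 and H1-5 had mean signals of 2.62 and 2.32 in shSND1 cells, against 2.50 and 2.38 in vector cells, with changes of 0.12 and -0.05. The 5 H1 rows had a median change of -0.02, with 2 of 5 positive, and the median turned to 0.10 with array weights and 0.01 without vector replicate 1.

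Among the 9 H2A rows, changes ranged from -0.14 to 0.25 with a median of 0.01. The brightest, H2AC20, had 9.71, 9.97 and 9.96 in shSND1 cells and 9.99, 9.80 and 9.69 in vector cells, a difference of 0.05 (SE 0.11, limma adjusted p = 0.906). Both groups covered almost the same range. H2AC6 had 6.92, 7.001 and 7.10 in shSND1 cells and 7.21, 7.18 and 7.06 in vector cells, the most negative change of the type (-0.14, SE 0.08, adjusted p = 0.627). Its lowest vector value lay below its highest knockdown value. The pseudogene H2AC2P had 5.26, 5.36 and 5.26 in shSND1 cells and 4.88, 4.98 and 5.29 in vector cells. Its change of 0.25 (SE 0.11, adjusted p = 0.564) was the largest positive change of any member, and vector replicate 3 lay inside the knockdown range. H2AC1, a testis-enriched H2A gene, gave 1.85 ± 0.15 in shSND1 and 1.93 ± 0.11 in vector cells (SD, n = 3 each), near the floor. H2AC16 gave 3.24 ± 0.03 in shSND1 and 3.17 ± 0.08 in vector cells.

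H2B had the most single-symbol rows (16), and the only single-symbol ones with an unadjusted limma p under 0.05. H2BC12 was the brightest histone row, with 10.19, 10.45 and 10.15 in shSND1 cells and 10.40, 10.27 and 10.13 in vector cells. Its change was -0.0048 (SE 0.11, interval -0.26 to 0.25, adjusted p = 0.993). H2BC21 had 6.71, 6.90 and 6.87 in shSND1 cells and 6.94, 6.84 and 6.81 in vector cells (change -0.03, SE 0.08). In both genes the groups overlapped, though knockdown replicate 1 of H2BC21 lay below its vector arrays and vector replicate 1 above its knockdown arrays.

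H2BC3 and H2BC9 were dim rows whose groups did not overlap. H2BC3 had 2.62, 2.56 and 2.51 in shSND1 cells and 2.69, 2.98 and 2.74 in vector cells, a change of -0.24 (SE 0.09, unadjusted limma p = 0.0331, adjusted p = 0.504, exact two-sided permutation p = 0.1, the smallest that 3 arrays against 3 allow). Without vector replicate 2, the highest of the 6, the change was -0.15, and the groups still did not overlap. H2BC9 had 2.87, 2.94 and 2.86 in shSND1 cells and 2.78, 2.74 and 2.68 in vector cells, a change of 0.16 (SE 0.07, unadjusted limma p = 0.0455, adjusted p = 0.534, exact two-sided permutation p = 0.1). Of the 32 single-symbol rows, 2 had every knockdown array above every vector array and 1 had every knockdown array below, beside 7.36% and 7.52% of all clusters.

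Other H2B rows had changes of either sign, none called. H2BC13 gave 3.94 ± 0.29 in shSND1 and 3.79 ± 0.19 in vector cells (SD, n = 3 each), and H2BC10 gave 2.18 ± 0.11 in shSND1 and 2.31 ± 0.03 in vector cells. The 2 rows of H2BC11 disagreed in sign. Row TC06001385.hg.1 had a change of -0.13 (SE 0.08) and row TC06001386.hg.1 a change of 0.11 (SE 0.06), and in TC06001386.hg.1 every knockdown array lay above every vector array. The median change over the 16 rows was 0.04, with 10 positive.

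H4 had 2 single-symbol rows at opposite ends of the range. H4C3 had 8.11, 8.39 and 8.36 in shSND1 cells and 8.13, 8.21 and 8.20 in vector cells, a change of 0.11 (SE 0.09, adjusted p = 0.750). Knockdown replicate 1 lay below all vector arrays and the other knockdown arrays lay above them. H4C7 had 1.30, 1.21 and 1.27 in shSND1 cells and 1.45, 1.21 and 1.37 in vector cells (change -0.08, SE 0.08), near the array's floor.

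**Figure D2:**
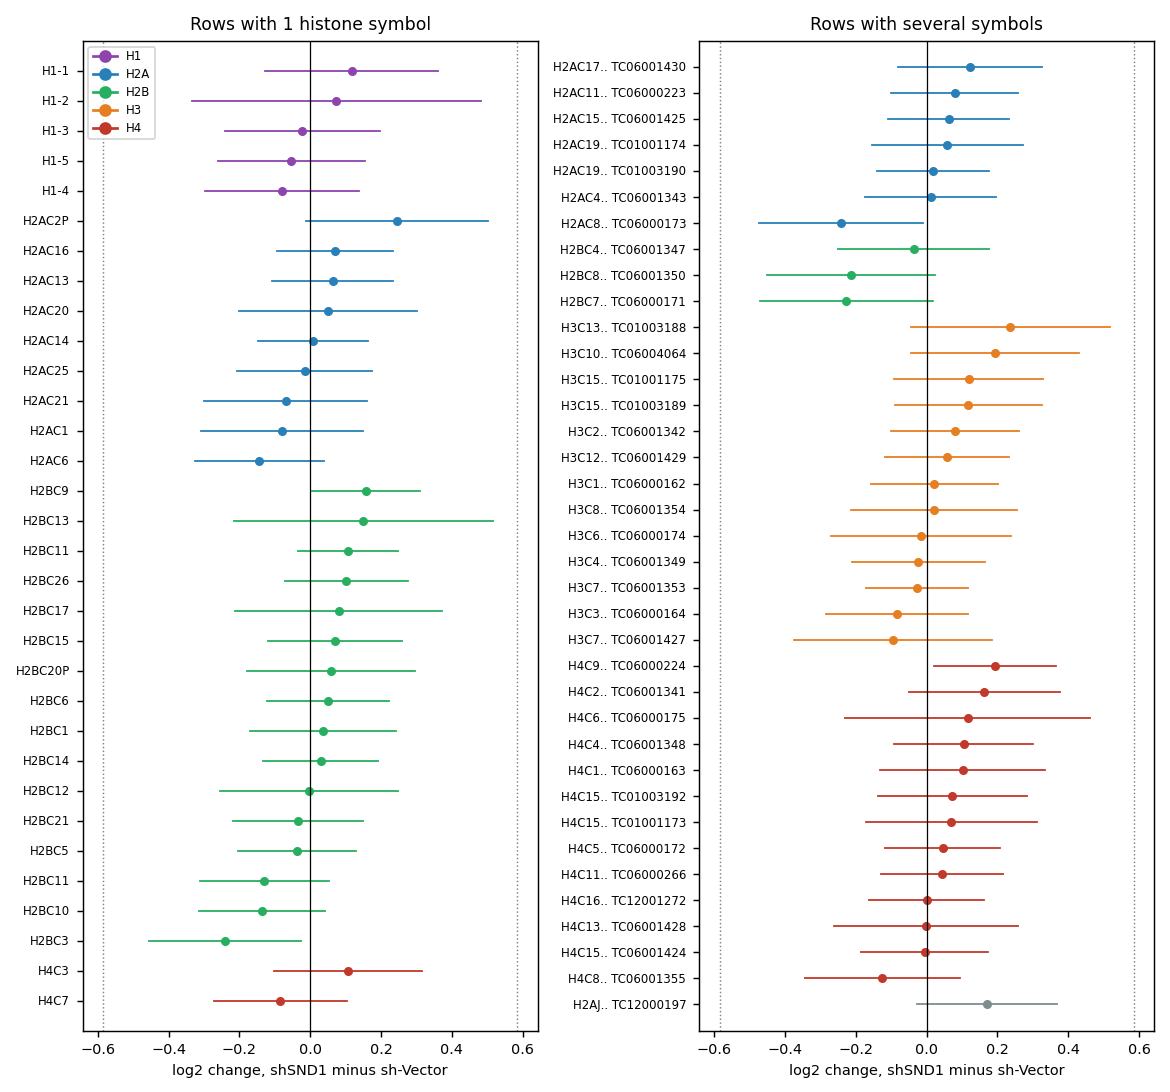
Log2 change, shSND1 minus sh-Vector (x axis), with its 95% interval from limma for each histone row with 1 symbol (left) and with several (right, named by the first-listed symbol and the row identifier), coloured by type, with the row that lists H2AJ first in grey. Dotted lines mark a 1.5-fold change either way, and all 69 intervals lie inside them.

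H3 genes were measured only through rows with several symbols. A field of 10 H3 symbols, those of the chromosome 6 cluster, was shared by 9 rows, whose mean signals ran from 1.57 to 6.87. Their changes ran from -0.09 to 0.19 with a median of 0.02. A field of 3 symbols (H3C13, H3C14 and H3C15) was shared by 3 rows on chromosome 1, with changes of 0.24, 0.12 and 0.12, all above 0 and none called. The largest, row TC01003188.hg.1, had 5.29, 5.69 and 5.71 in shSND1 cells and 5.35, 5.39 and 5.25 in vector cells. Knockdown replicate 1 lay inside the vector range there, and the adjusted p was 0.605. A further row, TC06001349.hg.1, listed H2AC7 among its H3 symbols and had a change of -0.02.

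H4 symbols filled the other large shared field. All 13 H4 rows with several symbols listed the same 14 H4 genes, and their mean signals ran from 2.46 to 9.21. The brightest, TC06001424.hg.1, had 9.17, 9.18 and 9.29 in shSND1 cells and 9.30, 9.24 and 9.11 in vector cells, a change of -0.01 (SE 0.08, adjusted p = 0.988). Row TC06000224.hg.1, with H4C9 listed first, had 3.23, 3.28 and 3.31 in shSND1 cells and 3.04, 3.01 and 3.19 in vector cells. It was the 1 shared row of 37 with all knockdown arrays above all vector arrays, beside 7.36% of all clusters. It was also the 1 shared row higher at an unadjusted limma p under 0.05, beside 5.13% of all clusters (change 0.19, SE 0.07, limma adjusted p = 0.506). Among shared rows, 0 had all knockdown arrays below all vector arrays, beside 7.52% of all clusters. The median change of the 13 rows was 0.07, with 10 positive.

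Shared rows of H2A and H2B gave the most negative changes among rows with several symbols. The row listing H2AC8 before H2AC4 (TC06000173.hg.1) had 5.02, 4.81 and 5.07 in shSND1 cells and 5.30, 5.26 and 5.06 in vector cells (change -0.24, SE 0.10, limma adjusted p = 0.530). It was the 1 shared row of 37 lower at an unadjusted limma p under 0.05, beside 4.02% of all clusters. Its groups overlapped, and the row with the same genes in the other order (TC06001343.hg.1) had a change of 0.01. The 3 shared H2B rows, which list the same 5 genes, had changes of -0.23, -0.21 and -0.04, none called. The pair of rows for H2AC18 and H2AC19 had mean signals of 9.75 and 7.08 in shSND1 cells, against 9.69 and 7.07 in vector cells, with changes of 0.06 and 0.02. The row shared by H2AC20 and H2AJ, a replication-independent H2A gene, had a change of 0.17 (SE 0.08).

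**Figure D3:**
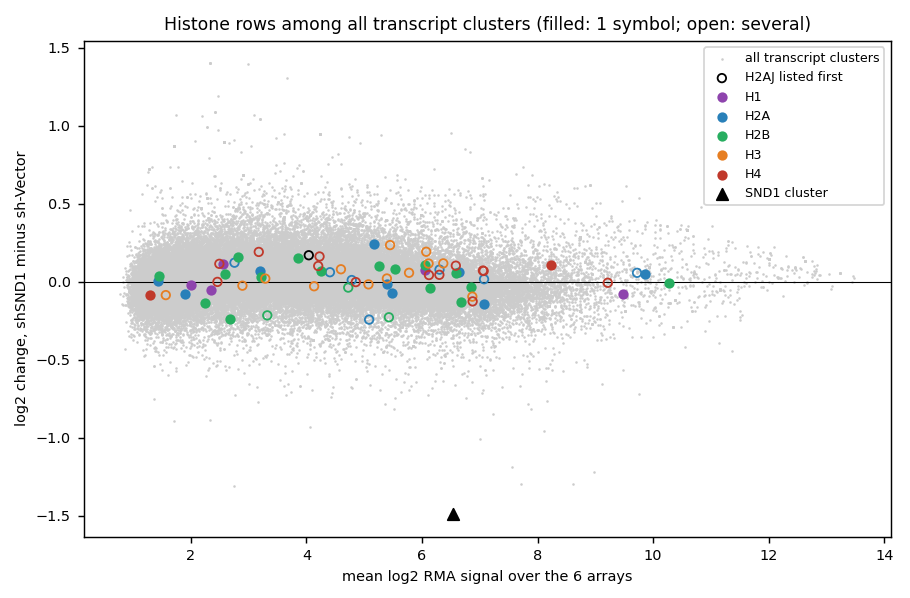
Mean log2 RMA signal over the 6 arrays (x axis) against the log2 change, shSND1 minus sh-Vector (y axis), for all 67528 transcript clusters (grey), histone rows with 1 symbol (filled) and with several (open), coloured by type with the row that lists H2AJ first in black, and the SND1 cluster (triangle). The histone rows lie within the grey band at every level, between -0.24 and 0.25, while the SND1 cluster lies at -1.49.

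Many H2A and H2B genes stand head to head and share the stretch between their starts. In the RefSeq windows 11 pairs of histone genes on opposite strands overlapped, and 5 of these had a single-symbol row for both partners. H2AC20 and H2BC21 had changes of 0.05 and -0.03, H2BC26 and H2AC25 had 0.10 and -0.02, and the testis-enriched H2BC1 and H2AC1 had 0.04 and -0.08. H2AC13 and H2BC13 had 0.06 and 0.15, and H2BC14 and H2AC14 had 0.03 and 0.01. Partners thus had the same sign in 2 of 5 pairs, and the 95% interval of every one of these changes included 0. The 17 single-symbol H2A and H2B rows with an octamer in the window had a median change of 0.01 (range -0.24 to 0.16), and the 6 without had 0.07 (range -0.04 to 0.15), as a description.

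The brighter histone rows shared a pattern across arrays that did not follow the groups. Over the 48 rows above the median level, the median deviation of a row from its own mean was -0.03, 0.05 and 0.05 on the knockdown arrays and 0.06, -0.02 and -0.08 on the vector arrays. Vector replicate 1 held the highest value of all 6 arrays in 18 of 48 rows, and vector replicate 3 the lowest in 21 and the highest in 0. Of the 48 rows, 29 listed several symbols and can share probes, so they are not 48 separate readings. In the 19 single-symbol rows, vector replicate 1 was highest in 9, and vector replicate 3 lowest in 8 and highest in 0. Among all 33764 clusters above the median level, vector replicate 1 was highest in 8769, and vector replicate 3 lowest in 4181 and highest in 3960. The median deviations of those clusters on vector replicates 1 and 3 were -0.012 and 0.0072, opposite in sign to those of the histone rows. Medians of the groups overlapped among the histone rows. Over all clusters above the median level, vector replicate 3 and knockdown replicate 1 were closer to each other (SD of their difference 0.163) than any arrays within a group were (0.177 to 0.239). The most distant arrays were vector replicate 1 and knockdown replicate 1 (0.291). The median change of the single-symbol rows was 0.03 with all arrays and 18 of 32 were positive. It was 0.04 without vector replicate 1, with 23 positive, -0.02 without vector replicate 3, with 14 positive, and 0.03 without knockdown replicate 1, with 21 positive, and 0 histone rows were called in each case. Array medians over all clusters ran from 3.58 to 3.73.

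**Figure D4:**
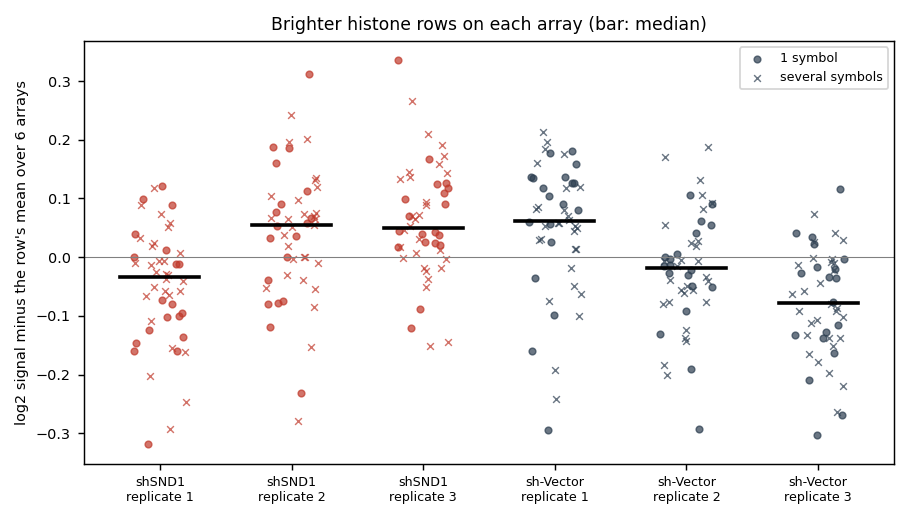
Deviation of each of the 48 brighter histone rows from its mean over the 6 arrays (y axis, log2) on the 3 shSND1 arrays (left, red) and the 3 sh-Vector arrays (right, dark). Points are rows with 1 symbol, crosses rows with several, and bars medians, which run from -0.03 to 0.05 in shSND1 and from -0.08 to 0.06 in sh-Vector.

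Genes that make and process histone mRNA were given by a list of 46, of which 41 had a single-symbol row. Of these, 0 passed the limma adjusted p, unadjusted p-values below 0.05 came from 2 genes with a positive and 2 with a negative change, beside 5.13% and 4.02% of all clusters, and the median change was 0.02 with 22 positive. With arrays centred on their medians the sign turned, with a median of -0.037, 9 of 41 positive, and 0 higher and 3 lower at that threshold. SLBP, the stem-loop binding protein, had 7.19, 7.25 and 7.08 in shSND1 cells and 7.09, 7.11 and 7.16 in vector cells (change 0.06, SE 0.07). NPAT, the coactivator of histone genes at histone locus bodies, had 5.45, 5.57 and 5.52 in shSND1 cells and 5.51, 5.54 and 5.38 in vector cells (change 0.04, SE 0.07). In both the groups overlapped.

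The smallest p-values of the list belonged to CSTF2T, a cleavage stimulation factor subunit, and DCP2, the mRNA decapping enzyme. CSTF2T had 4.30, 4.39 and 4.41 in shSND1 cells and 4.75, 4.84 and 4.70 in vector cells, a difference of -0.39 (SE 0.07, limma adjusted p = 0.252). DCP2 had a change of 0.25 (SE 0.07, adjusted p = 0.384), CDC25A, a phosphatase that activates cyclin-dependent kinases, had 0.24 (SE 0.07) and UPF1, the helicase of nonsense-mediated and histone mRNA decay, had -0.22 (SE 0.08). The groups of these 4 genes, named for their small p-values, did not overlap, and none passed. Among the 41 genes of the list, 5 had every knockdown array above every vector array and 5 below, beside 7.36% and 7.52% of all clusters.

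Histone chaperones and deposition factors had 31 measured genes of 33 listed, with 0 called. Unadjusted limma p-values below 0.05 came from 3 genes with a positive and 0 with a negative change, beside 5.13% and 4.02% of all clusters, and the median change was 0.04 with 20 positive. After centring, 0 were higher and 0 lower, 14 of 31 were positive and the median was -0.014. HJURP, the chaperone of centromeric CENPA, had a change of 0.19 (SE 0.07). NAP1L1, a chaperone of H2A-H2B dimers, had 0.20 (SE 0.08), and CHAF1B, a subunit of chromatin assembly factor 1, had 0.22 (SE 0.09). ANP32E, which removes H2A.Z, had 0.16 (SE 0.07). Adjusted p-values of these 4 genes lay between 0.474 and 0.547. Of the 31 genes, 5 had every knockdown array above every vector array and 1 below, beside 7.36% and 7.52% of all clusters.

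Of 29 genes on a list named replication-independent histone variants, 15 had a single-symbol row and 0 were called. All 15 lie outside the member rule, and whether each is independent of replication was not checked. Most replication-independent variants are made outside S phase from polyadenylated mRNA or in particular tissues. Unadjusted limma p-values below 0.05 came from 1 gene with a positive and 2 with a negative change, beside 5.13% and 4.02% of all clusters. The median change was 0.01 with 8 positive. With arrays centred on their medians, 0 were higher and 2 lower, 6 were positive and the median was -0.043. H2AZ1, encoding the H2A.Z variant, had 5.60, 5.74 and 5.76 in shSND1 cells and 6.00, 6.09 and 5.96 in vector cells, a change of -0.32 (SE 0.08, limma adjusted p = 0.337). MACROH2A1, a variant with a large macrodomain, had a change of -0.20 (SE 0.07). H3-4, a testis H3 gene, and H2AX, the variant phosphorylated at DNA breaks, had 0.27 (SE 0.11) and 0.20 (SE 0.09). Groups of H2AZ1, MACROH2A1 and H2AX did not overlap and those of H3-4 did. These genes were named for the smallest p-values of the list. Among its 15 genes, 2 had every knockdown array above every vector array and 2 below, beside 7.36% and 7.52% of all clusters.

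Cell cycle genes are given as the setting in which histone genes are transcribed. Of 45 measured S phase and replication genes, 36 had a positive change and 0 were called, with a median change of 0.08, and with arrays centred on their medians 26 were positive and the median was 0.02. Unadjusted limma p-values below 0.05 came from 6 genes with a positive and 0 with a negative change, beside 5.13% and 4.02% of all clusters, and from 1 and 0 after centring. Without centring, 15 of these 45 genes had every knockdown array above every vector array and 1 below, beside 7.36% and 7.52% of all clusters. Their smallest p-values belonged to RRM2, a ribonucleotide reductase subunit (0.40, SE 0.07, adjusted p = 0.258), RFC3, a clamp loader subunit (0.31, SE 0.10), the replication factor MCM10 (0.26, SE 0.08) and the checkpoint adaptor CLSPN (0.20, SE 0.07). Of 39 mitotic genes, 35 had a positive change, 9 were higher and 0 lower at an unadjusted p (beside 5.13% and 4.02% of all clusters), and 0 were called, with a median change of 0.07, and after the same centring 22 were positive and 2 were higher. Without centring, 11 of the 39 mitotic genes had every knockdown array above every vector array and 0 below, beside 7.36% and 7.52% of all clusters. ANLN, NCAPG, KIF23 and MKI67 had changes of 0.33, 0.30, 0.25 and 0.23. The single-symbol histone rows had 18 of 32 positive, beside 56.2% of all clusters, and 13 of 32 after centring. A difference between histone rows and these lists was not tested.

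**Figure D5:**
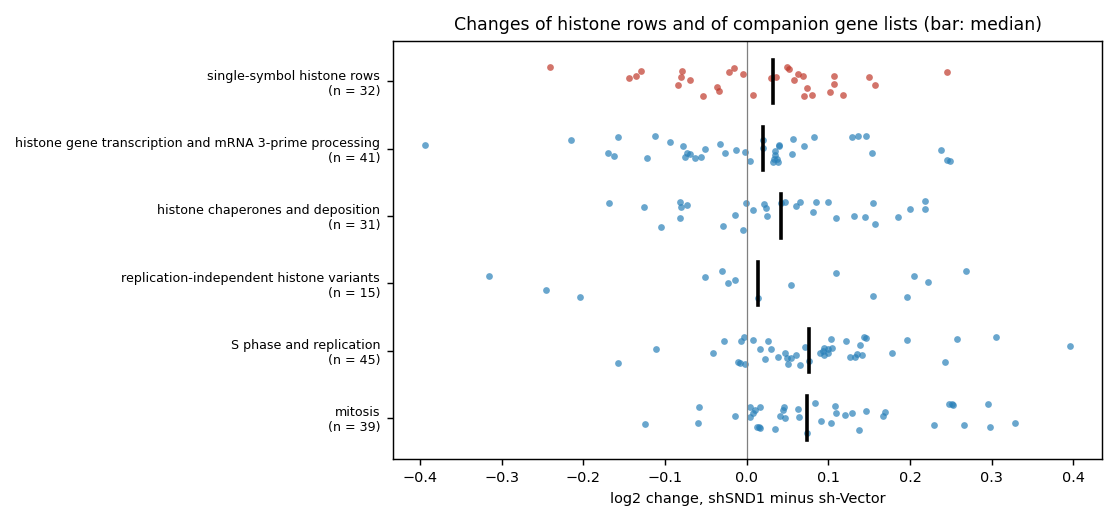
Log2 change, shSND1 minus sh-Vector (x axis), of the 32 single-symbol histone rows (top, red) and of the genes of 5 companion lists (blue), with bars at the medians. Histone rows centre on 0.03 (-0.02 with arrays centred on their medians) and the S phase and mitosis lists on 0.08 and 0.07, with wide overlap between lists.

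Markers of the labelled cell type were dim for several defining genes. Of 13 measured hepatocyte markers, 5 lay among the dimmest 25% of all clusters, namely ALB, AFP and the fibrinogen genes FGA, FGB and FGG. The fibrinogen genes lay at percentiles 18.6, 13.2 and 5.29. ALB, albumin, averaged 1.83 in shSND1 cells and 1.82 in vector cells, at percentile 16.4 of all clusters, and AFP, alpha-fetoprotein, lay at percentile 8.63. The brightest were APOA2 (7.87 in shSND1 and 7.79 in vector cells) and APOH (5.88 in shSND1 and 6.32 in vector cells). The epithelial keratins KRT8 and KRT18 averaged 11.4 each in shSND1 cells and 11.6 each in vector cells, and CDH1, E-cadherin, fell by 0.95 (limma adjusted p = 0.0316), a call lost with a floor, with a replicate block and whenever 1 array was left out. Of 5 leukocyte markers, CD68 (7.90 in shSND1 and 8.45 in vector cells) and CD3E (3.89 in shSND1 and 3.82 in vector cells) were the brightest. They lay at percentiles 97.7 and 53.4 of all clusters, whereas PTPRC, LYZ and CD14 lay at 9.69, 17.2 and 49.4. COL1A1 and PDGFRB led 7 fibroblast and endothelial markers, with changes of 0.07 and -0.03. At an unadjusted limma p under 0.05, 2 of 13 hepatocyte markers (APOH and SERPINA1) and 1 of 5 leukocyte markers (CD68) were lower. So were 4 of 6 epithelial markers (CDH1, KRT8, KRT18 and KRT19) and 0 of 7 fibroblast and endothelial markers. None was higher, beside 4.02% of all clusters lower and 5.13% higher, and centring the arrays left these marker counts unchanged. The identity of the line rests here on the labels, and why ALB, AFP and the fibrinogen genes were dim in both groups was not tested. Fewer cells of a type and less RNA per cell cannot be told apart in such bulk samples.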

How the data were processed

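The members and the gene lists were chosen with earlier results of these data known. The deposited values are log2 signals that the authors summarised with RMA (robust multi-array average: background correction, quantile normalization, probe summarisation), per the submitters' processing notes. No software or settings are given in the sources used here. Features other than transcript clusters (2995 of 70523) were left out. Symbols came from GEO's platform annotation, and all 366 histone symbol and Entrez pairs matched the RefSeq gene table (GRCh38.p14). Groups came from the sample titles. The comparison, shSND1 minus sh-Vector, was fitted with limma 3.58.1 (R 4.3.3; lmFit, then eBayes) to 67528 clusters on 6 arrays in a model holding only the group, with Benjamini-Hochberg adjustment over all clusters. SE values and 95% intervals are limma's, and the number of arrays limits the precision. The script was tested on simulated data.

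Named were, for each histone type, the 2 single-symbol rows with the highest mean, the 2 largest positive and the 2 largest negative changes, the 3 brightest rows with several symbols, SND1, SLBP and NPAT, up to 4 genes with the smallest p for each companion list, and the 2 brightest genes for each marker list together with any past the threshold. Other rows named were chosen after their values were seen, as were ALB, AFP, FGA, FGB, FGG and the further marker genes outside these rules. For companion genes with several rows, the brightest single-symbol row stood for the gene. Alternatives were a replicate block, filters, scalings, a floor, other variance models and leaving out each array. Figures were drawn with matplotlib 3.10.9.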

Additional observations from a re-analysis of the deposited data

How the results depend on the processing

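Under 14 alternative fits 0 histone rows passed the limma adjusted p, and the lowest adjusted p of any histone row was 0.137 (H2BC3 with array weights). Of 270 recomputed changes of the 20 named histone rows, 251 kept their sign. The number of all clusters called was 8 in the fit as reported, 29 with array weights, 24 with a variance trend and robust fitting, 35 when only clusters with 1 symbol were tested, 1 with a floor at the 30th percentile, and 0 to 4 when 1 array was left out (4 without vector replicate 3 and 0 without each of the others). With the replicate number as a block it was 0, as were the counts of single-symbol histone rows higher and lower at an unadjusted p. The labels state no pairing. Same-numbered arrays had correlations of deviations of -0.263, 0.0318 and -0.364, and differently numbered arrays of the 2 groups had -0.2077 to 0.4175. Deviations from a group's mean are tied to one another, so these values cannot show whether arrays shared a processing step. The count of single-symbol rows higher at an unadjusted p (1 as reported) was 2 with array weights, with the floor and with 1-symbol clusters only, 0 with centred arrays, renewed quantile normalization, the variance trend or without the dimmest 40%, and 0 to 2 when 1 array was left out. The count lower (1 as reported) was 2 with array weights, 0 with the floor or without the dimmest 40%, and 0 to 1 when 1 array was left out. Centring arrays on their medians moved the median of all clusters to -0.039, that of single-symbol H2B rows to -0.014, of H4 rows to -0.045 and of shared H3 rows to -0.035, and left 13 of 32 single-symbol rows positive. The H1 rows had a median of 0.099 with array weights and -0.092 to 0.015 when 1 array was left out, and the H2A rows -0.048 with centred arrays. The shared H3 rows had 0.083 with array weights, the H2B rows 0.0092 with renewed quantile normalization and -0.0040 to 0.046 when 1 array was left out, and the H4 rows 0.11 without the dimmest 40%, which keeps 1 of the 2. That filter kept 21 of 32 single-symbol and 32 of 37 shared rows. The signs of type medians are therefore not settled, and the causes were not tested. No detection calls or scanner files were used, so signal over background is unknown.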
